A study of Mus musculus with 31 samples.

Results

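The kidney comparison set 4 arrays of mice given lipopolysaccharide (LPS) and modIVIg against 3 arrays of mice given LPS and vehicle, 7 of the 31 arrays of the series. The arrays were chosen by their labels, and the measured features by a detection rule: probes entered with a detection p below 0.01 on 3 or more of the 11 kidney arrays. All mice were male C57BL/6J animals, 20 to 30 weeks old, and every group had received LPS, so no kidney without endotoxin was available for comparison and all values are differences between treatments under LPS. IVIg is pooled human IgG for intravenous use, and modIVIg is, by its name, a modified form, whose modification, dose and time of sampling the labels do not give. A further 4 kidney arrays came from mice given LPS and IVIg. They entered the same fit and bear on its estimate of the spread. Because vehicle has no replicate 4, they also bear on the fitted modIVIg changes, through the block described below that all kidney arrays share. The IVIg values are quoted beside the modIVIg values. RNA came from whole kidney homogenates, in which fewer cells of a type and less RNA per cell cannot be told apart. The labels do not say whether each array is a separate mouse. If arrays shared a mouse, the p-values would measure only technical spread.

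LPS is sensed by TLR4 with its co-receptor CD14, and in the kidney it sets off cytokine, chemokine and type I interferon programmes in tubule, endothelial and resident immune cells, draws in neutrophils and lowers transport genes of the nephron. Injured proximal tubule cells switch on Havcr1 (kidney injury molecule 1). Lcn2 (lipocalin 2) also rises in injured tubules, is not particular to the proximal tubule, and is listed here among neutrophil markers too. IgG acts on cells through activating Fc receptors, which signal through Fcer1g, and through the inhibitory receptor Fcgr2b, and is recycled by the neonatal Fc receptor Fcgrt.

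No gene passed between modIVIg and vehicle: 0 of 8544 features had an adjusted p under 0.05 (limma, Benjamini-Hochberg), and the lowest adjusted p was 0.519. Unadjusted p-values under 0.05 were found for 667 features, 7.81% of those tested, with 383 higher (4.48%) and 284 lower (3.32%) under modIVIg. A change of more than 1 on the log2 scale was estimated for 41 features (0.48%). The median change over all features was 0.01, and 59% of features had the same sign within both parts of the arrays described next. Over all 7 arrays 448 features did not overlap between the groups (5.24%), with 259 higher (3.03%) and 189 lower (2.21%). Every gene below is therefore described by its values, and none is a call. Against the same vehicle arrays, IVIg had 328 features (3.84%) at an unadjusted p under 0.05, and modIVIg against IVIg had 804 (9.41%). Both of those comparisons also had 0 features past the adjusted threshold.

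The kidney arrays fell into separate parts before any treatment was considered. Replicates 1 and 2 of all 3 treatments lay on one side of the first principal component and replicates 3 and 4 on the other, and this component held 71.9% of the variance. Signals correlated at 0.9475 to 0.9922 between arrays of the same part and at 0.85 to 0.9062 between parts. The difference ran mostly one way: 886 features were lower by more than 1 (log2) in replicates 3 and 4 and 21 were higher by that much, and 238 features were lower by more than 3. Dld (dihydrolipoamide dehydrogenase) is one of these. Its signal was 11.68 in vehicle replicate 1 and 5.45 in vehicle replicate 3, and 11.48, 11.55, 5.09 and 5.29 in modIVIg replicates 1 to 4. For genes lower by more than 3, 31 other probes of the same genes were kept, and 21 of these differed by less than 1 between the parts. All changes below come from a fit with the part as a block, and because vehicle has no replicate 4, every comparison within replicates 3 and 4 rests on the single array vehicle 3. IVIg replicate 3 stood apart from all other arrays on the second component. Without it the count at an unadjusted p under 0.05 was 645 higher and 495 lower, and 0 passed (lowest adjusted p = 0.0551, limma).

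**Figure D1:**
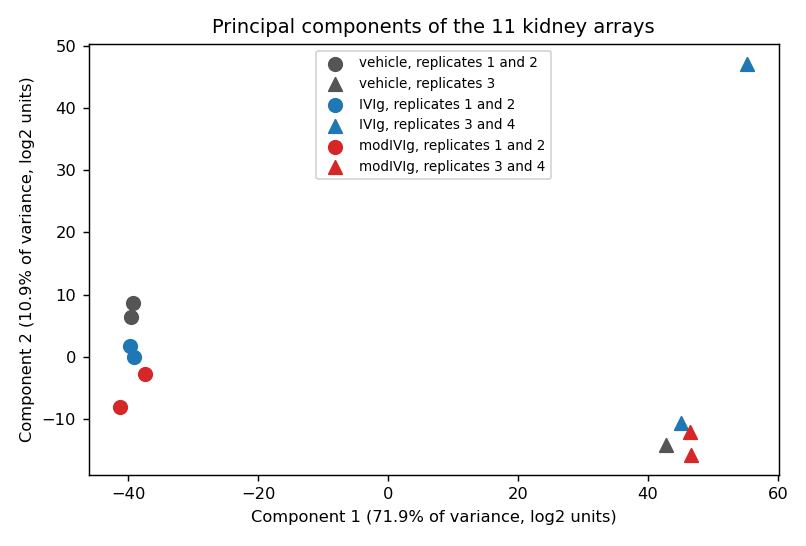
Principal components of the 11 kidney arrays after normalisation, component 1 against component 2 in log2 units, coloured by treatment, with circles for replicates 1 and 2 and triangles for replicates 3 and 4. Component 1, with 71.9% of the variance, separates the replicate numbers in every treatment, and IVIg replicate 3 lies alone at the top.

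The defining kidney marker Slc34a1, the sodium-phosphate transporter of the proximal tubule, was at 15.62 to 15.81 in vehicle and 15.54 to 15.77 in modIVIg. Traces of other tissues differed between arrays. The mean log2 signal of 11 adipocyte markers was 8.04, 10.89 and 10.16 in the vehicle arrays and 8.74, 10.33, 9.58 and 10.12 in the modIVIg arrays, so both groups spanned most of the same range. The mean of 7 hepatocyte markers was 9.52 in vehicle replicate 2, against 8.28 and 8.20 in the other vehicle arrays and 8.02 to 8.45 under modIVIg. Ambp, a plasma protein precursor made mainly in liver, was at 9.30 in vehicle replicate 2 and between 5.93 and 6.83 in the other 6 arrays of the comparison. The part of these traces in the gene differences was tested only by leaving out arrays and by an adipocyte covariate, and values that move with vehicle replicate 2 are given as such.

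Interferon-stimulated genes, the antiviral programme that LPS induces through TRIF and autocrine type I interferon, were mostly lower under modIVIg. Of 30 listed genes 24 were measured, and 19 of them had a lower estimate, with a median of -0.20 against 0.01 for all features. With 1 array left out that median ran from -0.26 to -0.11, the latter without vehicle replicate 3. Of these 24, 5 were lower and 0 higher at an unadjusted p under 0.05, against 3.32% and 4.48% of all features. In 13 of the 24 the modIVIg arrays lay below vehicle with no overlap within either part, which 8.46% of all features did. The promoter windows of 4 of the 5 genes at an unadjusted p under 0.05 (Oasl1, Cmpk2, Stat2 and Ddx58; none was found for Usp18) and of Ifit3 are shown, because an interferon-stimulated response element is the usual switch of this group. They are RefSeq windows on build GRCm38.p6, from 250 bases before to 50 bases after the start, 5′ to 3′ on the gene's strand. Capitals mark the motif GAAA, any 2 bases, GAAA, or its reverse complement TTTC, any 2 bases, TTTC.
Oasl1: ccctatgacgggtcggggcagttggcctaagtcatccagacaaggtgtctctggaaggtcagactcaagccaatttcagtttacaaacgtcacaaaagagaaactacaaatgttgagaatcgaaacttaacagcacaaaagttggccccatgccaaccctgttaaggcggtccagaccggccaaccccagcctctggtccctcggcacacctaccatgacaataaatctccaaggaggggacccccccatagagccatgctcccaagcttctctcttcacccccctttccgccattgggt
Cmpk2: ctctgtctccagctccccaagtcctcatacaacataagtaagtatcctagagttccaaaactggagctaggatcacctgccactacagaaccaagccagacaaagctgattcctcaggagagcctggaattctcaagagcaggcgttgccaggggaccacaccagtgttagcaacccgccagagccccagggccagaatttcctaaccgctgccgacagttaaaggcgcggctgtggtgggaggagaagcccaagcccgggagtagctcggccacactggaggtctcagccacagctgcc
Stat2: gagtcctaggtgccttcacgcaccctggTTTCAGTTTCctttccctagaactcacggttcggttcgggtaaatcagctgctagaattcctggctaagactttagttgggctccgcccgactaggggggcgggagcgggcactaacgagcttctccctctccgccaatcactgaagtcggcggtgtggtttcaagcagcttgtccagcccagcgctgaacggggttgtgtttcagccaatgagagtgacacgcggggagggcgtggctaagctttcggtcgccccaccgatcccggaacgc
Ddx58: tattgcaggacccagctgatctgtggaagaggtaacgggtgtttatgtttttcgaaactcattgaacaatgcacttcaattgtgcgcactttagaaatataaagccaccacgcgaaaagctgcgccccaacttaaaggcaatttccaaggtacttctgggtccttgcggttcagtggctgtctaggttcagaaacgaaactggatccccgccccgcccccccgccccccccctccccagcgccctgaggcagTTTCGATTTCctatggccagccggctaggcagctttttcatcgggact
Ifit3: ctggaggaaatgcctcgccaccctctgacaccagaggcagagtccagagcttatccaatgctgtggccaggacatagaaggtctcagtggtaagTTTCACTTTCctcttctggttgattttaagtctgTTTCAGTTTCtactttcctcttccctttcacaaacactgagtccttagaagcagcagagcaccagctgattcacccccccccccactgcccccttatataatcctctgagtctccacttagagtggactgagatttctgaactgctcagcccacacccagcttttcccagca
The windows lie at chr5:114922990-114923289 (plus strand) for Oasl1, chr12:26468965-26469264 (plus strand) for Cmpk2, chr10:128270248-128270547 (plus strand) for Stat2, chr4:40239776-40240075 (minus strand) for Ddx58 and chr19:34583279-34583578 (plus strand) for Ifit3. Searched on both strands and with overlaps allowed, the motif was present in 1131 of 32851 windows of this length (3.44%). Among windows of the measured interferon-stimulated genes it was in 11 of 18 (61.1%). Counted by gene, it was in 10 of the 16 of these genes that had a window. Ifit3 held 2 copies, Stat2 and Ddx58 held 1 each, and Oasl1 and Cmpk2 held none in these letters. A match describes the sequence and does not show that a factor binds there.

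Oasl1, a 2′-5′-oligoadenylate synthetase-like protein that restrains translation of Irf7 in mouse, had signals of 12.50, 12.73 and 12.09 in vehicle and 11.73, 11.86, 11.37 and 11.42 in modIVIg. All 4 modIVIg arrays lay below all 3 vehicle arrays, and the change was -0.78 ± 0.15 (SE; adjusted p = 0.581, limma). Its other kept probes gave -0.74 and -0.65. Cmpk2, a mitochondrial nucleotide kinase encoded beside Rsad2, was at 13.08, 13.46 and 13.10 in vehicle and 12.56, 12.57, 12.48 and 12.52 in modIVIg, again without overlap, a change of -0.64 ± 0.13. Stat2, a transcription factor of the type I interferon signal, was at 8.79, 8.45 and 8.83 against 8.24, 8.17, 8.41 and 8.47, lower within both parts (-0.41 ± 0.11). Ddx58, the RNA sensor RIG-I, and Usp18, a negative regulator of the interferon receptor, are named after their values were seen. Ddx58 was at 10.42, 10.88 and 10.38 in vehicle and 10.20, 10.18, 9.64 and 9.55 in modIVIg (-0.55 ± 0.19, and -0.32 without vehicle replicate 3). Usp18 was at 13.20, 13.20 and 13.52 against 12.52, 12.66, 13.15 and 13.15 (-0.47 ± 0.21). Both genes were lower in every modIVIg array than in any vehicle array. Ifit3, one of the most strongly interferon-induced genes, was at 15.27 to 15.29 in vehicle and 14.91 to 15.23 in modIVIg (-0.20 ± 0.10, and -0.13 without modIVIg replicate 1). The count of 5 became 10 without IVIg replicate 3 (5.79% of all features were then lower at that p) and was 3 without the block, where 0.96% of all features were lower and 2.65% either way at that p. Mx1, the antiviral GTPase, is named after its values were seen: it had 7.98, 8.61 and 8.64 in vehicle and 7.78, 7.51, 7.41 and 7.71 in modIVIg, with a change of -0.74 ± 0.45 that was -0.37 without vehicle replicate 3. Beside the same vehicle arrays, which the comparisons share, IVIg gave -0.11 for Oasl1, -0.24 for Cmpk2, -0.19 for Stat2 and 0.03 for Ifit3.

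Of 15 measured GTPases of the interferon-gamma programme, 11 had a higher and 4 a lower estimate, where 52% of all features were higher. Their median was 0.12, and it ran from 0.067 without modIVIg replicate 4 to 0.34 without vehicle replicate 3. At an unadjusted p under 0.05 there was 1 higher member of 15 (4.48% of all features) and 0 lower. Iigp1, an immunity-related GTPase, was not well above background on any vehicle array and was detected on 2 of 4 modIVIg arrays. It was at least 1.03-fold higher under modIVIg (log2 signals 5.62, 5.59 and 5.26 against 6.02, 6.10, 6.43 and 6.48). MHC class II presentation genes, which interferon-gamma also controls, had 6 of 8 lower estimates with a median of -0.32. That median was -0.52 in replicates 1 and 2 against -0.037 in replicates 3 and 4, and it ran from -0.43 without vehicle replicate 3 to -0.13 without modIVIg replicate 1. Cd74, the invariant chain, was at 10.54, 10.75 and 11.13 in vehicle and 9.83, 10.35, 10.59 and 11.03 in modIVIg (-0.44 ± 0.17). Its groups overlapped over the 7 arrays, and the change was -0.28 without modIVIg replicate 1.

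Neutrophil markers had the highest median among the lists with at least 5 measured members, 0.43 over 8 measured of 18 listed genes (0.37 to 0.69 with 1 array left out, the latter without vehicle replicate 3). Of the 8, 6 had a higher estimate, and 5 were higher at an unadjusted p under 0.05, against 4.48% of all features. The same 5 lay above vehicle without overlap within both parts, as 11% of all features did. S100a8, a subunit of calprotectin stored in neutrophil cytosol, was at 9.41, 9.38 and 9.52 in vehicle and 10.40, 10.40, 9.68 and 10.29 in modIVIg (0.82 ± 0.23, adjusted p = 0.582, limma). All 4 modIVIg arrays were above all vehicle arrays, replicate 3 by the least. S100a9, its partner subunit, was at 10.03, 9.91 and 9.14 against 10.26, 10.55, 9.50 and 9.71 (0.46 ± 0.15). Chil3, a chitinase-like protein of neutrophils and alternatively activated macrophages, was at 7.43, 7.44 and 7.39 against 8.99, 7.96, 7.90 and 7.90 (0.82 ± 0.22).
Il1r2, the decoy receptor for interleukin 1, was at 6.06, 6.39 and 5.75 in vehicle and 6.97, 7.0, 6.05 and 6.90 in modIVIg (0.77 ± 0.22). Csf3r, the receptor for the granulocyte growth factor G-CSF, was not well above background on any vehicle array and was detected on 2 modIVIg arrays, at least 1.06-fold higher. These last 2 are named after their values were seen. The 3 other measured markers were Lcn2, Mmp9 and Ltf, and none of their groups was separated within both parts. The count of 5 was 4 or 5 with any single array left out, and it was 2 without the block and 0 within replicates 3 and 4, where 0.925% of all features were higher at that p. Without the block, 1.69% of all features were higher at that p. Mpo, Elane, Camp, Ngp, Cxcr2, Mmp8 and Retnlg were not detected often enough to be tested. With the same vehicle arrays, IVIg gave 0.17 for S100a8 and -0.05 for Chil3, and a list median of 0.05. These IVIg values include replicate 3, which was low. The mean over the 8 markers was 8.63, 8.66, 7.56 and 8.42 in IVIg replicates 1 to 4, and 8.24, 8.33 and 8.47 in vehicle. IVIg replicates 1 and 2 thus lay above every vehicle array.

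Leukotriene B4 receptor 1, Ltb4r1, which guides neutrophils towards leukotriene B4, was among the leading genes, though it was not a list member. It was at 6.21, 5.80 and 6.36 in vehicle and 6.98, 7.17, 7.48 and 7.71 in modIVIg, without overlap (1.13 ± 0.18, adjusted p = 0.519, limma). IVIg gave 0.60 against the same vehicle arrays. Macrophage and monocyte markers had 6 of 6 measured members higher, with a median of 0.37, and 4 of the 6 lay above vehicle without overlap within both parts (11% of all features). The list median was 0.32 for IVIg against the same vehicle arrays, and 0.18 for modIVIg without the block. Laptm5, a lysosomal protein of blood-derived cells, was at 9.38 to 9.44 in vehicle and at 9.84, 9.86, 10.09 and 10.25 in modIVIg (0.55 ± 0.24), and IVIg gave 0.63. At an unadjusted p under 0.05 in the higher direction there was 1 member of 6, against 4.48% of all features. Leaving out vehicle replicate 1 or 2 or modIVIg replicate 1, 3 or 4 made that count 0. It was 3 without IVIg replicate 3 (7.55% of all features then) and 2 without IVIg replicate 4 (4.96%). T and NK cell markers had 2 measured members and B and plasma cell markers 1, so these cells could not be followed here.

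**Figure D2:**
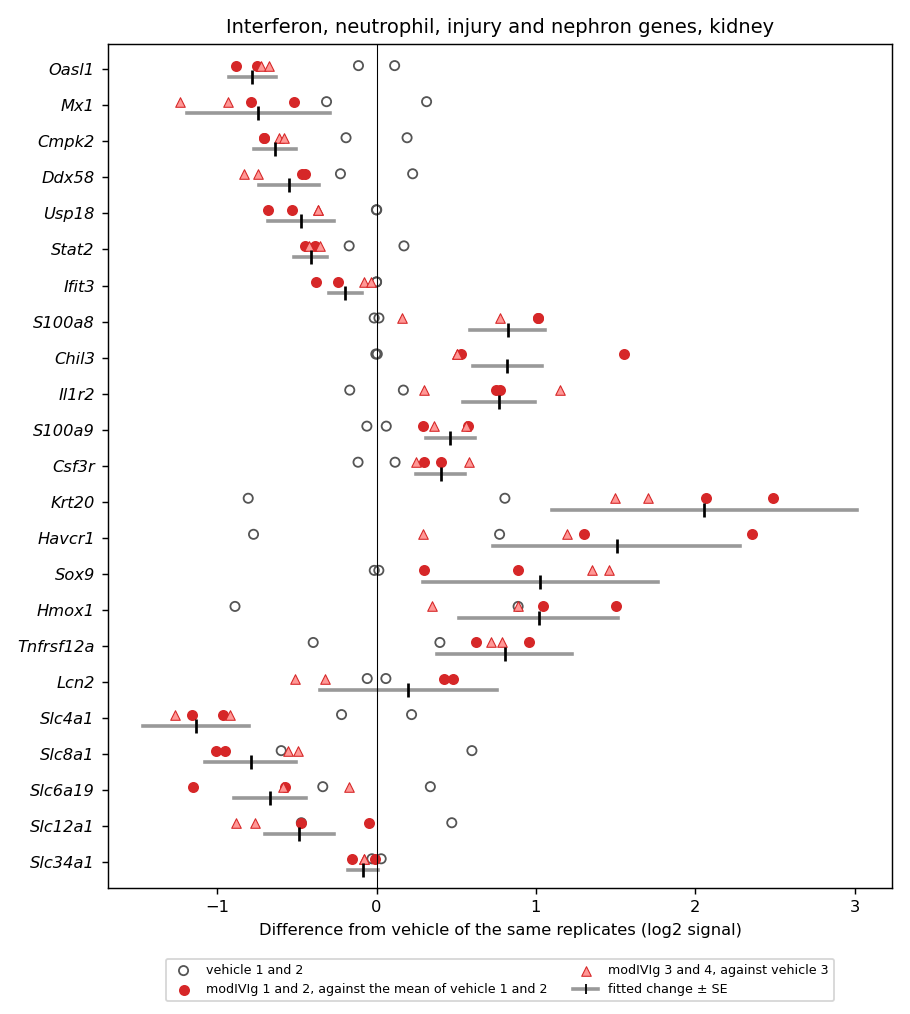
Difference of each array from vehicle of the same replicates (log2 signal) for 23 genes: open circles are vehicle 1 and 2, filled circles modIVIg 1 and 2, triangles modIVIg 3 and 4 against vehicle 3, and bars the fitted change ± SE. The interferon-stimulated genes from Oasl1 to Ifit3 lie at or below zero in all modIVIg arrays, and the neutrophil genes from S100a8 to Csf3r above it. The choice of genes favours this: most of these interferon genes were picked by their statistic or values. The neutrophil genes shown are the list members separated within both parts, without Mmp9 and Ltf. The injury genes from Krt20 to Lcn2, the latter also a neutrophil marker, spread widely, also between the vehicle arrays.

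Fc receptor genes other than Fcgr3 gave small differences. Fcgr3, an activating low-affinity receptor, was not well above background on any vehicle array and was detected on 3 of 4 modIVIg arrays, at least 1.11-fold higher. Its signals were 5.54, 5.85 and 5.86 in vehicle and 6.52, 6.67, 5.69 and 6.55 in modIVIg, so replicate 3 lay among the vehicle values. The inhibitory receptor Fcgr2b was at 9.39, 9.66 and 9.64 against 9.07, 9.13, 9.69 and 9.75 (-0.19 ± 0.15, and -0.10 without vehicle replicate 2 or modIVIg replicate 1), with overlapping groups. Fcgr4, an activating receptor of monocytes and neutrophils, gave 0.15 ± 0.22, the shared signalling chain Fcer1g gave 0.24 ± 0.20 and Fcgrt gave 0.11 ± 0.11. The groups overlapped for all 3. With 1 array left out Fcgr4 ran from 0.0061 (without modIVIg replicate 4) to 0.30 (without modIVIg replicate 1), Fcer1g from 0.13 (without modIVIg replicate 4) to 0.34, and Fcgrt from 0.043 (without vehicle replicate 3) to 0.18 (without vehicle replicate 1). Fcgr1, the high-affinity receptor, was not detected often enough to be tested. Of 8 measured genes of IgG binding and handling, 5 had a higher and 3 a lower estimate. At an unadjusted p under 0.05 there was 1 higher member and 0 lower (4.48% and 3.32% of all features).

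In the LPS receptor complex Tlr4 was near the detection limit, found on 2 vehicle arrays and 1 modIVIg array, with 5.72, 6.78 and 7.23 against 5.41, 6.11, 5.66 and 5.99 (-0.80 ± 0.36, -0.34 without vehicle replicate 3 and -1.21 without vehicle replicate 1). Cd14 was high in all kidneys, at 13.20, 12.88 and 14.26 in vehicle and 14.27, 13.72, 14.51 and 14.60 in modIVIg. The change was 0.90 ± 1.21, smaller than its error, with 0.54 without vehicle replicate 2 and 1.72 without vehicle replicate 3.

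Of 12 measured cytokines and growth factors 4, and of 17 chemokines 5, lay below vehicle without overlap within both parts, and 0 lay above, against 8.46% and 11% of all features. Their medians were 0.00021 and -0.053. With 1 array left out these ran from -0.099 to 0.15 and from -0.23 to 0.16, in each case between the values without modIVIg replicate 4 and without modIVIg replicate 1. Csf1, the macrophage growth factor, was at 9.05, 8.95 and 8.66 in vehicle and 7.85, 8.19, 8.08 and 8.29 in modIVIg, without overlap (-0.71 ± 0.27). Il33, an alarmin of stromal and epithelial nuclei, was at 8.70, 9.12 and 8.44 against 7.81, 8.13, 7.92 and 8.19, also without overlap (-0.69 ± 0.27). Ccl4, a chemokine for monocytes and T cells, was at 10.79, 10.89 and 10.38 against 9.76, 10.28, 9.75 and 10.21 (-0.64 ± 0.23). The modIVIg arrays were below every vehicle array for each of these 3 genes. The pyrogenic cytokine Il1b gave 0.56 ± 0.34, with overlapping groups, and was 0.17 without vehicle replicate 2 and 0.88 without vehicle replicate 1. Il6 showed the split of the arrays: it was at 9.85 and 9.78 in vehicle and 9.03 and 9.77 in modIVIg for replicates 1 and 2, and between 4.91 and 5.09 in vehicle 3 and modIVIg 3 and 4, where its probe was not detected.

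Genes of tubular injury had the highest single estimates and the widest spread. Of 19 measured genes 13 were higher, with a median of 0.11, and 0 were higher at an unadjusted p under 0.05 while 6 were separated upwards within both parts (11% of all features). Krt20, a keratin that appears in injured tubules, was at 9.03, 7.42 and 8.72 in vehicle and 10.30, 10.72, 10.43 and 10.22 in modIVIg. The groups did not overlap, and the change was 2.06 ± 0.96 (adjusted p = 0.638, limma). IVIg arrays ranged from 5.29 to 10.42 for this gene. Havcr1 was at 9.39, 7.85 and 10.27 in vehicle and 10.97, 9.92, 10.56 and 11.46 in modIVIg (1.51 ± 0.77). Its groups overlapped over the 7 arrays, and the change was 0.90 without vehicle replicate 2. Hmox1, haem oxygenase 1, was at 8.86, 10.63 and 10.47 in vehicle and 10.79, 11.25, 11.36 and 10.81 in modIVIg (1.02 ± 0.50, and 0.50 without vehicle replicate 1). Sox9, a factor of repairing tubule cells, gave 1.03 ± 0.74 and Tnfrsf12a, the receptor of the cytokine TWEAK, gave 0.80 ± 0.42. Both were above all vehicle arrays in all 4 modIVIg arrays, and both are named after their values were seen.
Lcn2 did not share this: it was at 14.55, 14.43 and 15.29 in vehicle and 14.97, 14.91, 14.78 and 14.97 in modIVIg, higher within replicates 1 and 2 and lower within replicates 3 and 4 (0.20 ± 0.56). Vcam1, an adhesion molecule of activated endothelium and injured tubules, was lower, at 10.51, 11.03 and 11.25 against 9.95, 10.11, 10.23 and 10.61 (-0.72 ± 0.26). The injury list depended on single arrays: its members with a higher estimate numbered 9 without vehicle replicate 2 and 18 without vehicle replicate 3. Its members at an unadjusted p under 0.05 in the higher direction went from 0 to 5 without IVIg replicate 3 (7.55% of all features then). They went to 3 without IVIg replicate 4 (4.96%) and to 1 without vehicle replicate 2 or 3 (2.65% and 3.04%). The list median was -0.0059 without vehicle replicate 2 and 0.30 without vehicle replicate 3. By part, the list had a median of 0.45 in replicates 1 and 2, and of -0.14 in replicates 3 and 4.

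Transport and segment genes of the nephron were mostly lower, by small amounts. Of 16 proximal tubule transporters 12 were lower (median -0.20), of 22 proximal tubule enzymes 17 (median -0.16), of 15 genes of the loop of Henle and distal tubule 13 (median -0.18), and of 14 collecting duct genes 12 (median -0.15), where 48% of all features were lower. At an unadjusted p under 0.05 there were 2, 2, 1 and 2 lower members and 0 higher ones in these lists (3.32% of all features were lower). With any single array left out, the lower members numbered 11 to 14, 16 to 19, 10 to 13 and 9 to 12. Those at that p numbered 0 to 4, 0 to 3, 1 to 3 and 1 to 3 (1.99% to 5.79% of all features). The medians were -0.099 for the enzymes and -0.089 for the collecting duct without vehicle replicate 2, and -0.11 for the loop and distal tubule and -0.25 for the collecting duct without vehicle replicate 1. The first 2 lists had 0 lower members at that p without vehicle replicate 2, and the enzymes also without vehicle replicate 1 or modIVIg replicate 1. Below vehicle without overlap within both parts lay 5, 0, 3 and 1 members (8.46% of all features), and above it 1, 0, 0 and 0 (11%). By part, the list medians were -0.20, -0.16, -0.20 and -0.21 in replicates 1 and 2. In replicates 3 and 4 these medians were -0.09, -0.04, -0.15 and -0.32.

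Slc4a1, the chloride-bicarbonate exchanger AE1 of acid-secreting collecting duct cells and of red cells, is a member of the collecting duct list. It was at 8.31, 8.75 and 8.26 in vehicle and 7.37, 7.56, 7.0 and 7.34 in modIVIg, without overlap, a change of -1.13 ± 0.33 (adjusted p = 0.582, limma). IVIg gave 0.60 ± 0.33 against the same vehicle arrays. The 5 measured erythroid and platelet markers, which include Slc4a1, had a median of -0.07, from -0.23 without vehicle replicate 1 to 0.062 without vehicle replicate 2. Slc6a19, the brush-border transporter of neutral amino acids, was at 10.37, 11.05 and 10.66 against 9.56, 10.13, 10.48 and 10.08 (-0.67 ± 0.23), and its groups overlapped only between parts. Slc8a1, a sodium-calcium exchanger of the distal tubule, was at 8.72, 9.92 and 9.72 against 8.31, 8.37, 9.23 and 9.17 (-0.79 ± 0.29, and -0.45 without vehicle replicate 2). Slc12a1, the furosemide-sensitive transporter NKCC2 of the thick ascending limb, was at 13.56, 12.62 and 12.94 against 13.04, 12.62, 12.06 and 12.18, with overlap (-0.48 ± 0.22, and from -0.78 to -0.31 with 1 vehicle array left out). Aqp4, a basolateral water channel, had the lowest estimate of the lists, -1.49 ± 0.61. That value rested on vehicle replicate 3, whose signal was 11.25 against 7.5 and 8.73 in modIVIg replicates 3 and 4, and it was -0.65 without that array. Ass1, the arginine-making enzyme argininosuccinate synthase, was at 14.20 to 14.25 in vehicle and 13.61, 13.66, 14.31 and 14.04 in modIVIg, with replicates 1, 2 and 4 below every vehicle array and replicate 3 above (-0.38 ± 0.13). Slc34a1 gave -0.08 ± 0.09.

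**Figure D3:**
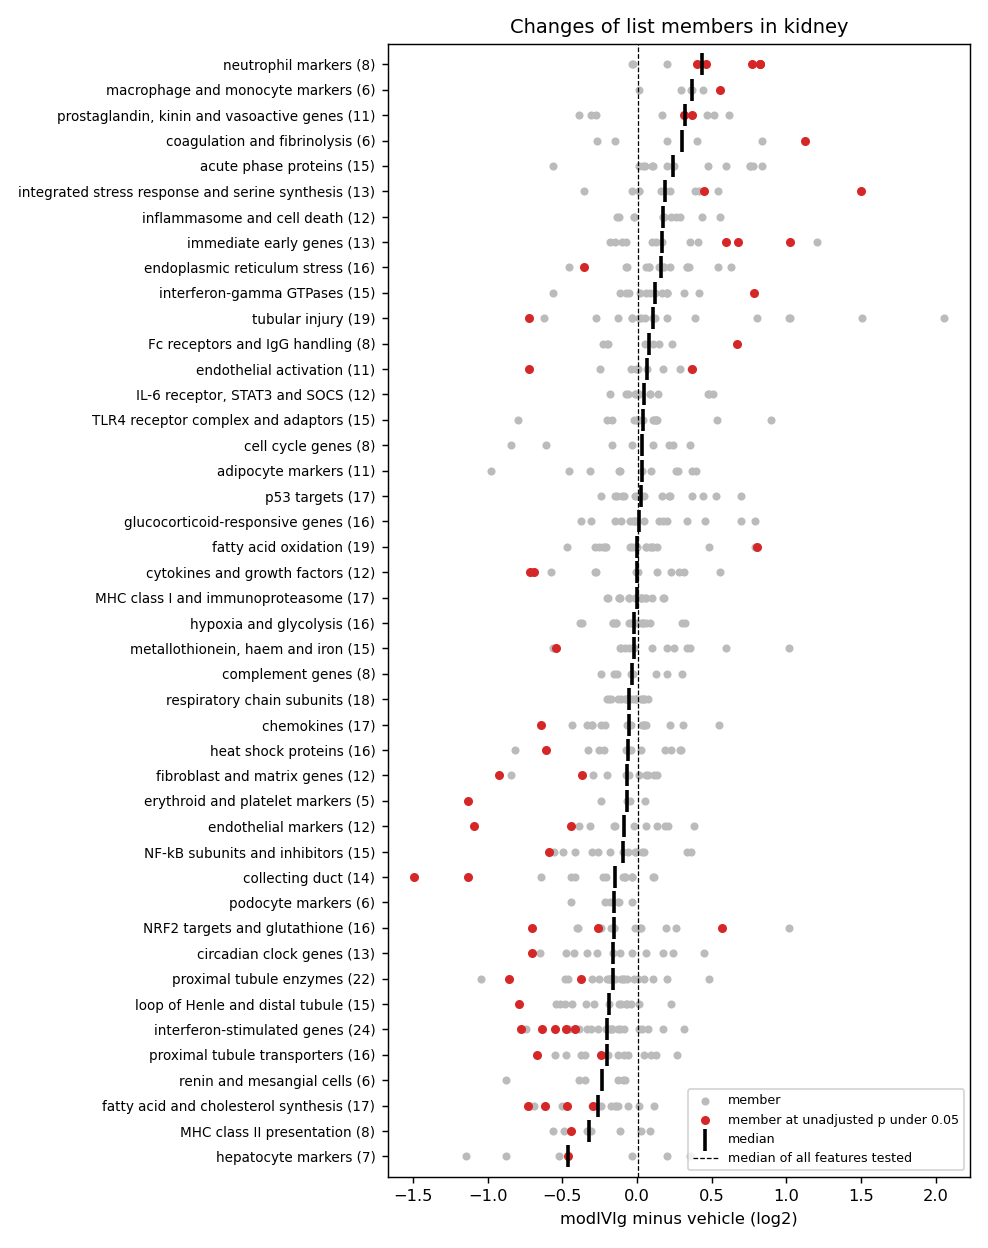
modIVIg minus vehicle (log2, x axis) of every measured member of the lists with at least 5 measured members, one list per line with the number measured, with list medians as black ticks and members at an unadjusted p under 0.05 in red. Neutrophil markers are at the top with a median of 0.43, interferon-stimulated and nephron lists lie left of the dashed median of all features, and hepatocyte markers, highest in vehicle replicate 2, stand at the bottom.

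Lipid synthesis genes were lower as well, with 15 of 17 estimates below 0 and a median of -0.26. Of these, 4 were lower at an unadjusted p under 0.05 (3.32% of all features): Idi1 and Hmgcs1 of cholesterol synthesis and Fads1 and Elovl6 of fatty acid desaturation and elongation. Fads1 was at 12.49, 12.46 and 12.38 in vehicle and 12.05, 12.18, 12.19 and 12.24 in modIVIg, without overlap (-0.30 ± 0.10). Hmgcs1, the cholesterol pathway's HMG-CoA synthase, named with Elovl6 after the values were seen, was at 14.31, 14.50 and 14.03 against 13.67, 13.81, 14.08 and 13.73 (-0.47 ± 0.18). Idi1 was measured well only in replicates 1 and 2, with 10.02 and 9.71 against 8.62 and 9.17 (-0.62 ± 0.20 in the fit). Elovl6 gave -0.73, and -0.44 without vehicle replicate 2. Scd1, the stearoyl-CoA desaturase, was, like the adipocyte mean, highest in vehicle replicate 2, at 12.84, 15.02 and 13.81 in vehicle and 12.94, 13.71, 12.91 and 13.78 in modIVIg (-0.50 ± 0.46). Without vehicle replicate 2, which had the highest adipocyte and hepatocyte signal, 11 of 17 were lower, with a median of -0.17. Of these, 2 were at an unadjusted p under 0.05, where 1.99% of all features were lower at that p. There were also 2 at that p without modIVIg replicate 2 (2.82% of all features), and 7 with the adipocyte mean as a covariate (3.52%).

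The leading genes by the moderated statistic, 10 in each direction, had adjusted p-values from 0.519 to 0.582 (limma), and the values of Ccn1, Sgk2 and Rusc1 were larger in replicates 1 and 2 than in replicates 3 and 4. Slfn1, a growth-regulating gene of the Schlafen family known from T cells and macrophages, was first, at 6.48, 6.82 and 7.16 in vehicle and 7.38, 7.68, 7.81 and 8.22 in modIVIg. No modIVIg array overlapped with vehicle (0.87 ± 0.13), and IVIg gave 0.45. The matricellular proteins Ccn1 and Ccn2, both immediate targets of YAP and serum response factor, were higher together. Ccn1 was at 8.03, 7.6 and 6.62 in vehicle and 9.27, 9.11, 7.30 and 7.08 in modIVIg (1.03 ± 0.20), separated within both parts and overlapping between them, and its other probes gave 0.76 and 0.65. Ccn2 was at 11.19, 10.89 and 11.63 against 12.02, 11.68, 12.06 and 12.16, without overlap (0.68 ± 0.15). Of 13 measured immediate early genes 9 were higher, with a median of 0.17. Ccn1 and Ccn2, already chosen by their statistic, and Klf4 were so at an unadjusted p under 0.05 (4.48% of all features). With 1 array left out, 6 to 12 members were higher, and the median ran from -0.0068 to 0.60. The members at that p then numbered 3 to 4 (2.65% to 7.55% of all features). Klf4, a zinc finger factor named after its values were seen, was at 0.59 ± 0.18. Sgk2, a kinase related to the salt-regulating Sgk1, was at 10.62, 10.37 and 11.51 against 11.66, 11.77, 11.72 and 12.26 (0.90 ± 0.20), and its second probe gave 0.97.
The other leading higher genes were Cc2d1a (0.45 ± 0.09), Tuft1 (0.49 ± 0.10), Rusc1 (0.67 ± 0.14), Cyp2d22 (0.59 ± 0.13), a cytochrome P450, and Nudt18 (0.52 ± 0.12). On the lower side stood Nr1d2, the clock repressor REV-ERB beta, at 10.53, 10.62 and 8.70 in vehicle and 9.75, 10.03, 7.98 and 7.85 in modIVIg (-0.70 ± 0.13). Its second probe gave -0.13 ± 0.21, so the probes of this gene disagreed. Pde1a, a calmodulin-dependent phosphodiesterase, was at 9.04, 9.25 and 9.56 against 8.65, 8.72, 8.85 and 9.0, without overlap (-0.53 ± 0.11), and its other probes gave -0.45 and -0.59. Oasl1, Cmpk2 and Stat2, given above, were also among these 10. Exoc3l4 (-0.62 ± 0.13), Spire2 (-0.43 ± 0.09) and Cox15 (-0.51 ± 0.13), which is needed for the haem of cytochrome c oxidase, were lower within both parts. Pdlim4 and Bcl6b, the latter a transcriptional repressor of endothelial cells, were not well above background on any modIVIg array and detected on all 3 vehicle arrays, at least 1.17-fold and at least 1.02-fold lower.

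**Figure D4:**
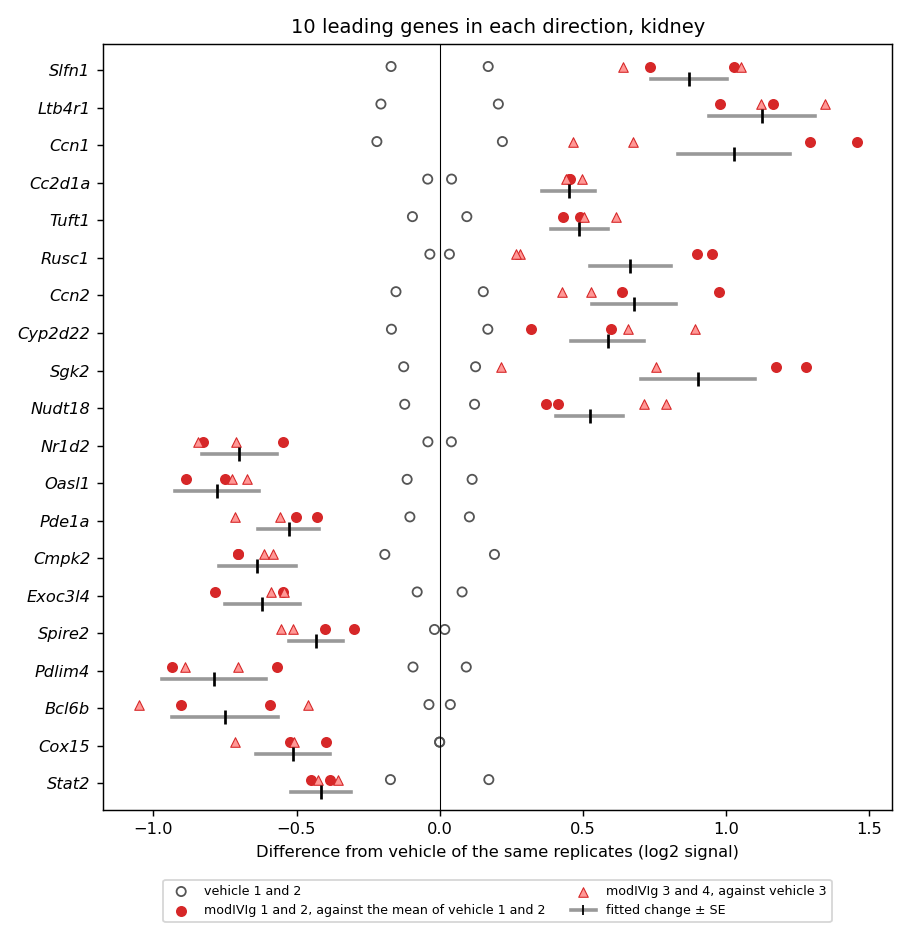
Difference of each array from vehicle of the same replicates (log2 signal) for the 10 genes leading in each direction, with open circles for vehicle 1 and 2, filled circles for modIVIg 1 and 2, triangles for modIVIg 3 and 4 against vehicle 3, and bars for the fitted change ± SE. All modIVIg values lie on the side of the fitted change, a pattern that choosing genes by their statistic favours, and none of the 20 genes had an adjusted p under 0.519.

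Among stress genes, the integrated stress response and serine synthesis list had 11 of 13 higher with a median of 0.19, or 0.11 without vehicle replicate 2. Fgf21, a stress hormone, was at 7.53, 5.85 and 6.11 in vehicle and 7.63, 8.0, 8.86 and 7.56 in modIVIg, without overlap (1.5 ± 0.60). Psat1, an enzyme of serine synthesis, was at 11.84 to 11.94 in vehicle and 12.55, 12.16, 12.47 and 12.12 in modIVIg (0.45 ± 0.13). These 2 of 13 were the members at an unadjusted p under 0.05 (4.48% of all features were higher at that p). The count was 1 without vehicle replicate 2 or 3 or modIVIg replicate 2 (2.65%, 3.04% and 3.76% of all features). Srxn1, sulfiredoxin, gave 0.57 ± 0.18 without overlap, while Gsta3, a glutathione transferase under the same regulator NRF2, gave -0.26 ± 0.10 without overlap. Plin2, the coat protein of lipid droplets, was at 11.01, 10.42 and 11.10 against 11.86, 11.56, 11.49 and 11.42 (0.80 ± 0.33, and 0.53 without vehicle replicate 2), all modIVIg arrays above vehicle. F13a1, a coagulation factor subunit made by macrophages, was at 5.91, 5.66 and 6.47 against 7.40, 7.01, 7.06 and 7.24 (1.13 ± 0.39), also without overlap. Of the stromal and endothelial genes, Pdgfra, a PDGF receptor of fibroblasts, was at 8.49, 8.72 and 8.25 against 7.36, 7.72, 7.48 and 7.67 (-0.92 ± 0.36), without overlap. Igfbp5, an insulin-like growth factor binding protein, gave -1.09 ± 0.46, and -0.71 without vehicle replicate 3. The fibroblast and endothelial list medians were -0.06 and -0.08. With 1 array left out they ran from -0.19 (without vehicle replicate 1) to 0.044 (without vehicle replicate 2) and from -0.16 (without vehicle replicate 1) to 0.016 (without modIVIg replicate 3).
Acute phase proteins had 14 of 15 higher with a median of 0.24 (-0.05 without vehicle replicate 1 and 0.64 without vehicle replicate 3), but 0 at an unadjusted p under 0.05, and 7 of 15 were higher without vehicle replicate 1. There was 1 at that p without vehicle replicate 2, vehicle replicate 3 or IVIg replicate 3 (2.65%, 3.04% and 7.55% of all features). Saa1 and Saa2, serum amyloid A genes, gave 0.84 ± 0.64 and 0.76 ± 0.53. They were 0.46 for Saa1 without vehicle replicate 2 and 1.15 for Saa2 without vehicle replicate 3. By part, the whole list had a median of 0.45 in replicates 1 and 2, and of -0.05 in replicates 3 and 4.

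The liver arrays of the same treatments, 4 per group, allowed a check on arrays that the kidney comparison did not use. The labels do not tie livers to kidneys of the same mice, so shared animals were not accounted for. In liver, 352 of 7155 features (4.92%) passed between modIVIg and vehicle (limma, adjusted p under 0.05). Of the named genes lower in liver, 165 were measured in kidney, and 127 of them (77%) were lower there too, where 48% of all kidney features were lower. Of the 128 measured genes that were higher in liver, 95 (74.2%) were higher in kidney, where 52% of all features were higher. The kidney changes were smaller: the genes lower in liver had a median of -1.01 in liver and -0.18 in kidney, and the genes higher in liver had 0.71 and 0.10. In kidney 25 of the 165 were lower at an unadjusted p under 0.05 and 2 higher (background 3.32% and 4.48%), and 10 of the 128 were higher and 0 lower. Groups were separated within both parts in the liver's direction for 43 of 165 and 28 of 128, and in the opposite direction for 4 and 3, against 8.46% lower and 11% higher among all features.

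The genes lower in both organs included interferon genes. Oasl1 was at -1.94 in liver and -0.78 in kidney, Cmpk2 at -2.68 and -0.64, Ddx58 at -1.37 and -0.55, and Usp18 at -1.97 and -0.47. Slc4a1 was at -1.72 in liver and -1.13 in kidney, and Csf1 at -0.83 and -0.71. In kidney the same-direction counts were 118 to 128 of 165 and 86 to 96 of 128 when any one array was left out, with 124 and 95 without vehicle replicate 2, the array with the hepatocyte signal. By part, the counts were 126 and 88 within replicates 1 and 2, and 108 and 88 within replicates 3 and 4. Without the block they were 122 and 85.

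**Figure D5:**
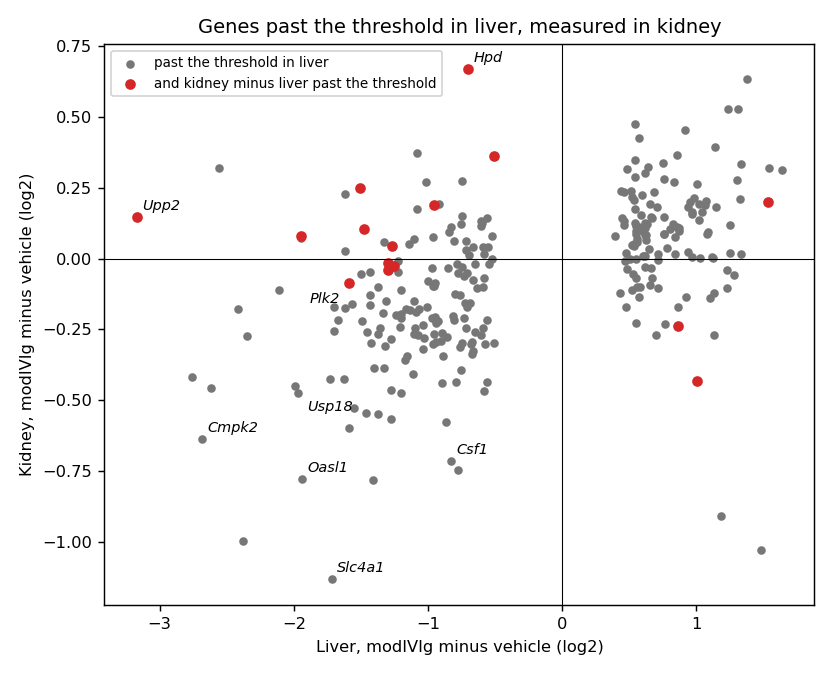
Change in kidney (y axis) against change in liver (x axis), both modIVIg minus vehicle in log2, for the 293 named genes past the threshold in liver and measured in kidney, with genes whose organ difference passed in red. Most genes lower in liver lie below the horizontal line and most genes higher in liver above it, over a much narrower range in kidney.

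The difference between the organs was tested directly in a fit of 23 liver and kidney arrays. It passed for 17 of 6739 features (0.252%), with kidney above liver for 14 (0.208%) and below for 3 (0.0445%). The genes that follow, apart from Cyp2d22, were chosen after their values were seen. Hpd, the tyrosine-degrading enzyme 4-hydroxyphenylpyruvate dioxygenase, was at 7.93, 8.05 and 8.48 in vehicle kidneys and 8.79, 8.63, 8.91 and 9.22 in modIVIg kidneys. No array overlapped, and the change was 0.67 ± 0.16 in kidney against -0.70 ± 0.15 in liver, a difference of 1.37 ± 0.22 (adjusted p = 0.00363, limma). Cyp2d22 gave 0.59 in kidney and -0.37 in liver, a difference of 0.95 ± 0.15, and Slc19a2, a thiamine transporter, gave 0.36 and -0.51, a difference of 0.87 ± 0.16. For Upp2, uridine phosphorylase, and Plk2, a stress-induced kinase, the liver changes of -3.17 and -1.59 had kidney changes of 0.15 ± 0.51 and -0.09 ± 0.12 beside them.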

How the data were processed

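Total RNA of liver, kidney and white blood cells was labelled and hybridised to Illumina mouse arrays with 25697 probes, 1 array per sample. The deposited values are intensity readings of each probe, made by the authors with GenomeStudio 1.9.0 per the submitters' processing notes, neither normalised nor background subtracted. The detection p-values were deposited beside them per the file headers. A second deposited table gives log2 values that the authors normalised within each organ. lumi and limma are named in the notes without their roles, and the method is not stated.

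Signals of the 11 kidney arrays went through neqc, which corrects background and equalises quantiles (limma 3.58.1, R 4.3.3, offset 16). All signals and changes are on that log2 scale, whose offset understates changes of dim probes, and values after ± are standard errors. A gene stands for the brightest of its kept probes, by mean (11010 probes kept, 8544 features, 7910 named), and 23978 probes had a symbol. The 3 kidney groups were fitted together (lmFit, eBayes) with replicates 1 and 2 against 3 and 4 as a block. This split comes from the data, not the labels. Deviations of same-numbered arrays correlated at 0.587 to 0.849 in 10 pairs, and at -0.581 to 0.3 once the split was removed. Vehicle and modIVIg then gave 0.3 for replicate 1, 0.239 for replicate 2 and -0.231 for replicate 3. Differently numbered pairs were not compared in this way, so pairing by replicate number was neither shown nor excluded. Separation within both parts means that modIVIg and vehicle do not overlap among replicates 1 and 2 nor among replicates 3 and 4. For probes without a detection in one group, folds are bounds: each array of that group counts at its dimmest detected probe, or at the probe itself if brighter.

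The comparison, the 46 gene lists and the rules were chosen with earlier results of these data known. Genes named are the 10 leading in each direction by moderated t, detected on at least 3 arrays of the higher group and with 1 sign in both parts; up to 4 per list (the first 2 measured and the 2 with the largest statistic); and receptor and injury genes chosen with them. The fits were tested on simulated data. Precision is limited by how few arrays there are. Alternatives covered the authors' values, other background corrections, detection filters, probes, blocks, array weights, the variance prior, an adipocyte covariate, the arrays fitted and each array left out. Recounting list members and liver genes under these was added after seeing the data. Slides are not named in the files, so no slide block was run.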

Additional observations from a re-analysis of the deposited data

Results flagged for a closer look

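Of 93 genes examined in the 4 modIVIg kidneys, 4 had one array far from the other 3 by Dixon's criterion, and chance gives about 1 in 20. S100a8 was at 9.68 in replicate 3 and 10.29 to 10.40 in the others. Chil3 was at 8.99 in replicate 1 and 7.90 to 7.96 in the others. Il1r2 was at 6.05 and Fcgr3 at 5.69 in replicate 3, below the others of their group. The 4 of 93 are near the share that chance gives, and the signals were not adjusted for the split of the arrays. Replicate 3 had the lowest modIVIg signal for 3 of these genes. Its mean over the 8 neutrophil markers was 8.47, against 8.90, 8.86 and 8.67 in the other modIVIg arrays and 8.24, 8.33 and 8.47 in vehicle.

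The modIVIg change differed between kidney and liver for 17 features (limma, adjusted p from 0.000159 to 0.0458). Kidney was above liver by 3.32 for Upp2, 2.03 for Defb1, 1.70 for Faah, 1.58 for Bdh1, 1.5 for Plk2, 1.40 for the unnamed probe ILMN_2647313, 1.37 for Hpd, 1.31 for Bdh2, 1.29 for Mdm2, 1.26 for Ddah1, 1.23 for Cdh1, 1.14 for Dipk1a, 0.95 for Cyp2d22 and 0.87 for Slc19a2. Kidney was below liver, at -1.44 for Zfp446, -1.33 for Gtf2ird1 and -1.01 for Mlec. In 15 of these 17 the kidney change itself was under 0.5 in size, and the exceptions were Hpd at 0.67 and Cyp2d22 at 0.59.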

How the results depend on the processing

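The kidney count stayed at 0 features past the threshold under all 26 alternatives, the replicate number as a block and no block (0 each) included. The lowest adjusted p ranged from 0.0551 (without IVIg replicate 3) to 0.997 (no replicate block), and features at an unadjusted p under 0.05 numbered 210 to 1167. The 20 leading genes kept their sign in every setting that measured them, at 0.328 to 1.5 times the size given. Their choice by moderated t, with 1 sign in both parts, fixed the sign within each part. It also favoured that sign in the other settings, which reuse the same arrays. With the authors' processed values Exoc3l4 was at -0.23 and Ltb4r1 at 0.49. Of the list medians over all alternatives, 40 moved by more than the standard deviation of the list mean over the 4 modIVIg arrays, and 1104 did not. That spread includes the split of the arrays. For the proximal tubule enzymes the means were 11.86, 11.85, 10.99 and 10.93, beside a median change of -0.16. The 1104 therefore do not show that the medians were stable. Among the other genes printed, Lcn2 turned to -0.42 within replicates 3 and 4 and to -0.012 without vehicle replicate 2 (up to 0.75 without vehicle replicate 3), Fcgr2b to 0.082 within replicates 3 and 4, and Scd1 to 0.0087 without vehicle replicate 2 (down to -1.08 without vehicle replicate 1). The causes were not tested. Features differing between kidney and liver numbered 8 with no replicate block, 13 with the replicate number as a block, 10 with the authors' processed values and 85 with the 4 compared groups alone, and 9 to 22 with 1 array left out (9 without kidney vehicle replicate 2 and without kidney modIVIg replicate 2). All 17 were among the 85. The 3 vehicle arrays, of which 1 lies in the second part, and the spread of IVIg replicate 3 limit what this comparison can show, and genes near background, such as Tlr4 and the Fc receptor Fcgr3, have bounds or uncertain changes.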
